A study of Homo sapiens with 8 samples.

Results

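The histone and chromatin modifying enzymes of the human beta-cell line EndoC-βH5, an established line, were compared between cytokine-treated and untreated cells by RNA sequencing. Members were the protein-coding genes of the deposited table whose symbols begin with the family names of the lysine demethylases (KDM1 to KDM8), the KMT2 and KMT5 methyltransferases, the SETD, PRDM and EZH proteins, the arginine methyltransferases (PRMT), the lysine acetyltransferases (KAT2 and KAT5 to KAT8), the histone deacetylases (HDAC), the sirtuins (SIRT1 to SIRT7), the DNA methyltransferases (DNMT) and the TET dioxygenases. The rule found 83 genes among the 16525 genes of the table, of which 13401 are protein-coding. Another 12 names of these families were not analysed here. The names alone set the choice, among genes that had passed the authors' filter on low CPM, and the families were chosen with earlier results of these data known. A name does not make an enzyme: most PRDM proteins act as DNA-binding repressors, and SETD3 to SETD6 are known mainly for other substrates.

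The 4 untreated control libraries and the 4 cytokine libraries, from cells kept for 48 h with recombinant human IL-1β, IFNγ and TNFα, were compared. According to the study's methods the line had been immortalised with SV40 large T antigen and telomerase, and both transgenes had been taken out again from the cells used, in control and cytokine cultures alike. All libraries therefore come from 1 line. Values are in CPM, the reads of a gene per 1000000 reads of the library. Control libraries held 36956294 to 40117636 reads on the listed genes, cytokine libraries 36577438 to 39348935, and 1 read was worth 0.0196 to 0.0214 CPM. The columns of the table are not numbered by replicate. By the start of its name every control library matches 1 cytokine library, which gives 4 pairs, lettered A to D. A middle field of the names is shared by A and B, and another by C and D, and what it stands for is not stated. Libraries A and B of a group were far more alike than other libraries: the chi-square per gene between them was 13.25 in control and 5.89 in cytokine libraries, against 66.6 to 294 for any other 2 libraries of a group. They differ by more than sampling noise and were counted as separate libraries throughout. The labels do not state that the libraries came from separate cultures, so the p-values measure the spread between these libraries only. All 16 beta-cell markers were listed, of which 12 were called lower and none higher (8 and 1 with TMM), against 17.5% of all genes called lower. Their median log2 fold change was -0.68, and 3 of the 16 were above 0. Their summed level was 9686 to 14422 CPM in control and 10474 to 18072 CPM in cytokine libraries. The part of the beta-cell markers in the results on the enzymes was not tested. All 8 markers of other endocrine cells were listed, at a summed 2537 to 4183 CPM in control and 2599 to 4114 CPM in cytokine libraries. Of these, 1 was called higher and none lower (12.5% called, against 27.0% of all genes). Of 9 stromal and endothelial, 8 immune and 8 exocrine markers 2, 1 and 2 were listed. The 16 interferon response genes all rose. Their summed level was 508 to 621 CPM in control and 11534 to 15339 CPM in cytokine libraries. Any of them below the authors' filter on low CPM in every control library passed it through the cytokine libraries alone. The rise of such a gene is fixed by the filter, so the count of 16 is a description only. In bulk RNA, fewer cells of a kind and less RNA per cell cannot be told apart.

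Chromatin modifying enzymes add small groups to histone tails or to DNA, or take them away. Acetyltransferases and deacetylases act on lysines, methyltransferases and demethylases on lysines and arginines, and DNMT and TET proteins write and oxidise methylcytosine. Many draw on metabolism: acetyltransferases use acetyl-CoA, methyltransferases S-adenosylmethionine, sirtuins NAD, and the JmjC demethylases and TET proteins 2-oxoglutarate and oxygen. In beta cells such enzymes are studied for their part in keeping cell identity and in the response to inflammatory signals.

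Promoters were read to show what sequence lies at the starts of these genes. RefSeq gave start windows on GRCh38.p14 for 76 of the 83 members (124 windows), each reaching from 250 bases before a transcript start to 50 bases after it. For this, 4 letter patterns were searched on both strands. The interferon-γ activated site GAS, TTCNNNGAA, was present in 7.66% of all 34943 windows and in 2.42% of the windows of members (HDAC4, HDAC8 and PRDM10). The core of the interferon-stimulated response element (ISRE), to which IRF factors bind, was present in 3.57% of all windows and in 0.806% of the windows of members (SIRT4). The NF-kB consensus was present in 11.3% of all windows and in 19.4% of the windows of members (21 members), and the E2F pattern TTTCCCGC in 1.62% and 2.42% (3 members). The E2F and NF-kB patterns were added after seeing the data. None of the 15 members with a changed level (defined below) and a window held GAS or the interferon core. The windows of such members with any match were those of HDAC9 and DNMT3B (NF-kB) and PRMT7 (E2F). They are printed with capitals for the matched letters, 5′ to 3′ on the strand of the gene, together with the HDAC4 window, whose GAS match lay nearest to a start, at 10 bases before it. All 4 windows belong to starts inside the GENCODE span of the gene, and which starts were used in these cells was not measured. In the DNMT3B window the capitals cover several overlapping matches.
HDAC9, chr7:18509020-18509319, plus strand: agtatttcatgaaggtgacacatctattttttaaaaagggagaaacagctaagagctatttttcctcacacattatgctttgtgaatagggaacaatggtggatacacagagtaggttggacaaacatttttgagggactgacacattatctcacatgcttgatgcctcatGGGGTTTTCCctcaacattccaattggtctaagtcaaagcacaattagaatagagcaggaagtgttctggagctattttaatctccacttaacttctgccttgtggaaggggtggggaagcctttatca
DNMT3B, chr20:32779602-32779901, plus strand: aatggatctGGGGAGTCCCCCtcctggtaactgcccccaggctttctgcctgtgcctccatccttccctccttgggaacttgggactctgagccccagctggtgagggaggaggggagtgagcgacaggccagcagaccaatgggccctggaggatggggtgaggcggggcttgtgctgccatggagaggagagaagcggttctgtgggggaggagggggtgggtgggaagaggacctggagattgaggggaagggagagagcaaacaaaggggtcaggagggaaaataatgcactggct
PRMT7, chr16:68310864-68311163, plus strand: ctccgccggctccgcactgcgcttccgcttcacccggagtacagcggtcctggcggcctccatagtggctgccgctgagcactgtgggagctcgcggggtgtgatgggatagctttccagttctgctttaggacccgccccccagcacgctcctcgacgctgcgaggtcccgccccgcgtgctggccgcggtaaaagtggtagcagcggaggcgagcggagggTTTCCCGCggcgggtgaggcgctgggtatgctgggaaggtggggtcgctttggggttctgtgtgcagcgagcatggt
HDAC4, chr2:239267465-239267764, minus strand: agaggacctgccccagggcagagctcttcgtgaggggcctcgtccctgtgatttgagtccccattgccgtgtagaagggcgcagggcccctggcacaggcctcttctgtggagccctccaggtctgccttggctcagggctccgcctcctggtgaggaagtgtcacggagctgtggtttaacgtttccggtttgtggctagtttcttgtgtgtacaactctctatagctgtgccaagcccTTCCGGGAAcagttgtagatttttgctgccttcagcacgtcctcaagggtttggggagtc

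After cytokine exposure 9 of the 83 enzymes were called higher and 7 lower. HDAC9, SIRT1, SETD7, PRDM6, TET2, KMT2A, KDM5C and HDAC7 rose, by 1.52-fold (HDAC7) to 2.37-fold (HDAC9), and PRDM1 rose 3.60-fold. PRDM1 passed the authors' filter on low CPM only with cytokine libraries counted, so its rise is a description only. DNMT3B, TET1, PRMT7, KAT2B, KAT2A, PRMT6 and HDAC11 fell, by 1.42-fold (HDAC11) to 2.18-fold (DNMT3B). A gene was called where limma on log2(CPM + 0.1) gave an absolute log2 fold change above 0.5 and a Benjamini-Hochberg FDR below 0.05 over all 16525 genes, and all folds and log2 fold changes are on that scale, cytokine over control. Among all genes 27.0% were called, 9.52% higher and 17.5% lower, against 19.3% of the enzymes. Lower calls made up 43.8% of the calls among the enzymes and 64.8% of those over all genes. The median log2 fold change was -0.04 over the enzymes and -0.17 over all genes.

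Scaling the libraries by TMM, which sets the bulk of the genes level, moved the median of all genes to -0.02 and that of the enzymes to 0.11. Then 12 enzymes were called higher and 6 lower, with 33.3% of the calls lower, against 24.7% of all genes called (13% higher, 11.7% lower) and 47.3% of calls lower. KAT6A, KDM5A and KMT2C were gained as higher and HDAC11 was lost. The other 15 calls were made under both scalings, in the same direction. The ranges of 4 and 4 libraries did not overlap for 26 enzymes, 12 above and 14 below, and for 32.8% of all genes (10.8% above, 21.9% below). Parts of the exons of some called genes are annotated to other genes too: 405 of 3769 exon bases of KAT2A on the same strand, and on the other strand 330 of HDAC11, 328 of PRDM6 and 239 of PRMT7. Among the 16 called enzymes 14 did not overlap, and KMT2A and HDAC7 did. Among the 67 enzymes not called, 5 lay fully above (KDM6A, KAT6A, KAT6B, HDAC4, HDAC5) and 7 fully below (KDM1B, KDM2B, KDM4B, KMT5C, HDAC8, SIRT3, SIRT5).

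**Figure D1:**
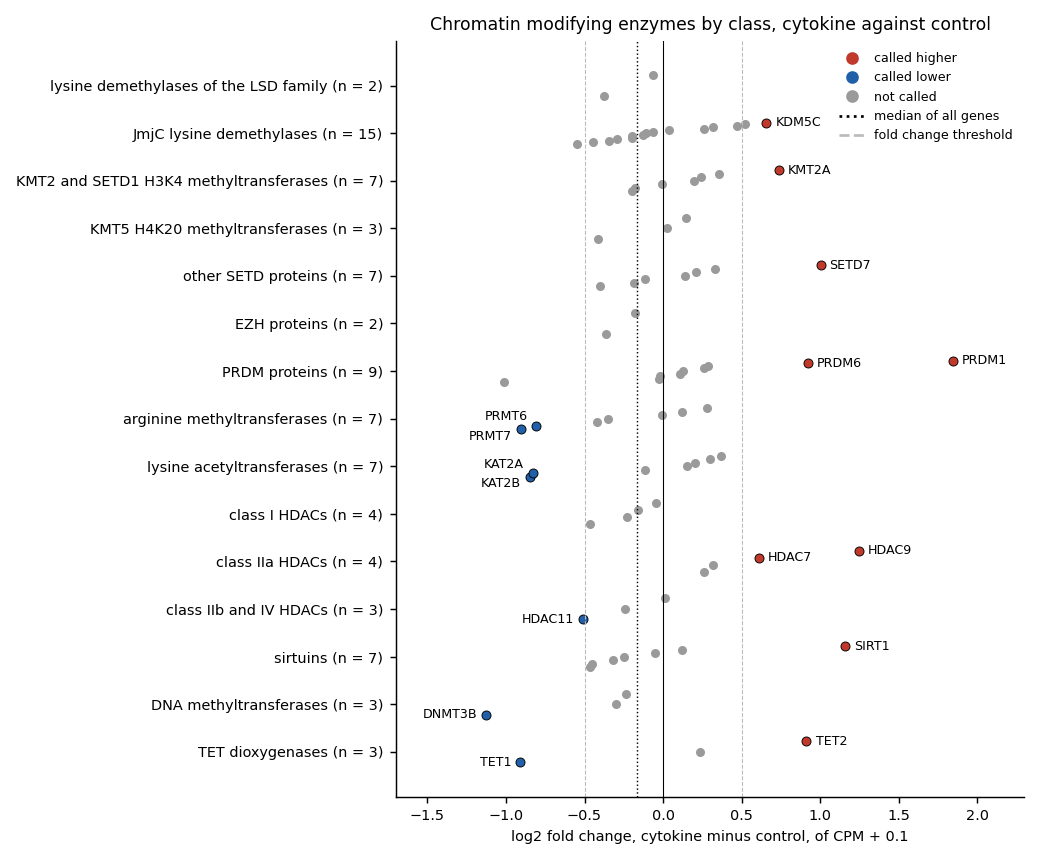
Log2 fold change (cytokine minus control, of CPM + 0.1) of each of the 83 enzymes, 1 point a gene, in rows by class, with called genes in colour and named. The 9 higher calls reach 1.85 (PRDM1, which is at 1.02 with a pseudocount of 1 CPM), the 7 lower calls reach -1.13 (DNMT3B), and most classes straddle the dotted median of all genes at -0.17. PRDM1 passed the authors' filter on low CPM only with cytokine libraries counted.

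DNA methylation is written by DNMT1, which copies it at replication, and by DNMT3A and DNMT3B, which set it anew. DNMT3B (ENSG00000088305, chr20:32762385-32809356 in GENCODE 29 on GRCh38, as for all gene coordinates here) had 5.20, 5.06, 3.74 and 6.06 CPM in control libraries A to D and 2.49, 3.46, 1.11 and 2.45 CPM in cytokine libraries A to D. Every cytokine library was below every control library. It fell by 1.13 on the log2 scale (SE 0.31, limma adjusted p = 0.0185), from 5.01 ± 0.957 to 2.38 ± 0.967 CPM (SD, n = 4). The call was lost without control D (log2 fold change -1.03, limma adjusted p = 0.0542). DNMT1 had 141, 147, 170.0 and 181 CPM in control and 131, 122, 120.0 and 145 CPM in cytokine libraries, and DNMT3A 72.1, 76.0, 81.2 and 88.1 against 65.2, 67.7, 63.6 and 72.4 CPM. Neither was called (log2 fold changes -0.30 and -0.24, limma adjusted p = 0.0885 and 0.123), and the groups of both overlapped. Per length, DNMT1 was the most abundant at 63.4 ± 16.2 TPM (reads per exon length, scaled to 1000000 in each library) in control libraries, followed by DNMT3A at 25.5 ± 5.71 and DNMT3B at 4.15 ± 1.05, and these spreads did not overlap. DNMT3B made up 4.54% ± 0.878 of the summed TPM of the family in control and 2.64% ± 1.07 in cytokine libraries, while DNMT1 made up 67.9% and 68.4%.

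The TET dioxygenases oxidise methylcytosine, a step towards its removal, and moved in opposite directions. TET2 (ENSG00000168769, chr4:105145875-105279816) had 36.5, 38.5, 34.3 and 33.6 CPM in control and 71.9, 73.9, 61.3 and 63.0 CPM in cytokine libraries. The groups lay far apart, and TET2 rose 1.88-fold (log2 fold change 0.91, SE 0.11, limma adjusted p = 0.000157). TET1 (ENSG00000138336, chr10:68560656-68694482) had 6.46, 7.24, 7.39 and 7.64 CPM in control and 4.88, 4.29, 2.23 and 4.30 CPM in cytokine libraries. All 4 cytokine libraries were lower, most of all library C, and TET1 fell by 0.91 on the log2 scale (SE 0.24, limma adjusted p = 0.0137). TET3 was between 22.6 and 28.0 CPM in control and between 26.3 and 32.1 CPM in cytokine libraries, overlapped and was not called (log2 fold change 0.24, limma adjusted p = 0.167). As a share of the summed TPM of the family, which no scaling between libraries can change, TET2 went from 44.0% ± 1.41 to 59.7% ± 3.06, TET1 from 15.8% ± 1.81 to 6.10% ± 1.56 and TET3 from 40.2% ± 2.48 to 34.2% ± 3.56 (SD, n = 4). In control cells TET2 (8.27 ± 0.721 TPM) and TET3 (7.55 ± 0.631 TPM) were within their spread of each other, and in cytokine-treated cells TET2 stood at 16.9 ± 0.703 TPM against 9.78 ± 1.88 TPM for TET3.

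Proliferation markers were read from the same fit. Against 17.5% of all genes called lower, 18 of 20 such genes fell and none rose (14 and 0 with TMM). Their median log2 fold change was -1.32 (-1.17 with TMM). Their summed level was 439, 460, 556 and 770 CPM in control and 253, 237, 255 and 363 CPM in cytokine libraries A to D. UHRF1, which brings DNMT1 to newly copied DNA, fell from 8.42 ± 2.42 to 2.74 ± 1.41 CPM (log2 fold change -1.66, SE 0.32, limma adjusted p = 0.00269). EZH2, the Polycomb H3K27 methyltransferase, had 11.9, 11, 9.93 and 16.4 CPM in control and 11.2, 10.6, 8.31 and 13 CPM in cytokine libraries. It was not called (log2 fold change -0.18, limma adjusted p = 0.518). The part of the proliferation markers in the DNMT3B and TET1 results was not tested.

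Against 27.0% of all genes called, 2 of 4 class IIa deacetylases were called higher and none lower. These are large proteins with little catalytic activity of their own that bind MEF2 factors and move between nucleus and cytoplasm. HDAC9 (ENSG00000048052, chr7:18086949-19002416) had 6.18, 5.12, 4.96 and 5.61 CPM in control and 17.1, 13.4, 11.4 and 11.2 CPM in cytokine libraries. Its lowest cytokine value was well above its highest control value, and it rose 2.37-fold (log2 fold change 1.25, SE 0.17, limma adjusted p = 0.000359). HDAC7 (ENSG00000061273, chr12:47782722-47833132) had 19.1, 17.0, 12.5 and 14.6 CPM in control and 25.1, 28.0, 18.7 and 24.7 CPM in cytokine libraries. Cytokine library C lay below control library A, and HDAC7 rose 1.52-fold (log2 fold change 0.61, SE 0.17, limma adjusted p = 0.0202). This call was lost without any 1 of control D, cytokine A, cytokine B and cytokine D (log2 fold changes 0.58, 0.58, 0.53 and 0.59, limma adjusted p = 0.0530, 0.0548, 0.0624 and 0.05004). Of its 9928 exon bases 1112 are shared with genes on the other strand. HDAC5 (119 to 145 CPM in control, 149 to 197 CPM in cytokine libraries) and HDAC4 (21.2 to 24.1 and 25.9 to 28.8 CPM) did not overlap between groups and were not called (log2 fold changes 0.32 and 0.26, limma adjusted p = 0.0730 and 0.0975). Per length HDAC5 dominated the class with 83.1% ± 1.28 of its summed TPM in control and 80.8% ± 2.91 in cytokine libraries, whereas HDAC9 held 1.52% ± 0.192 and 2.86% ± 0.599.

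None of the 4 class I deacetylases was called, against 27.0% of all genes. HDAC1, the catalytic subunit of several corepressor complexes and the most abundant of the 83 enzymes per length (123 ± 36.5 TPM in control), had 103, 112, 137 and 146 CPM in control and 99.3, 99.5, 116 and 130.3 CPM in cytokine libraries. Its groups overlapped (log2 fold change -0.16, limma adjusted p = 0.454). The sign of HDAC1 was not settled, since its log2 fold change was -0.01 with TMM and above 0 with median-of-ratios scaling. HDAC8 was at 5.06 to 6.35 CPM in control and 3.68 to 4.98 CPM in cytokine libraries, without overlap and without a call (log2 fold change -0.47, limma adjusted p = 0.0571). HDAC11 (ENSG00000163517, chr3:13479724-13506424), the lone class IV enzyme, had 20.9, 20.3, 26.1 and 22.2 CPM in control and 14.8, 14.5, 17.9 and 15.4 CPM in cytokine libraries. Each cytokine library was below all control libraries, and HDAC11 fell by 0.51 on the log2 scale (SE 0.13, limma adjusted p = 0.0141), just past the fold threshold. It lost its call with TMM (-0.36, adjusted p = 0.0305) and without control C, cytokine A or cytokine B (-0.43, -0.49 and -0.47), each time by the fold threshold and not by the adjusted p. HDAC6, a cytoplasmic tubulin deacetylase, was not called (log2 fold change 0.01, limma adjusted p = 0.958).

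SIRT1 was the 1 of 7 sirtuins called (14.3%, against 27.0% of all genes). This NAD-dependent deacetylase acts on histones and on transcription factors and is known in beta cells for its effect on insulin secretion. SIRT1 (ENSG00000096717, chr10:67884669-67918390) had 11.9, 13.3, 18.6 and 17.1 CPM in control and 26.2, 24.5, 53.2 and 37.3 CPM in cytokine libraries. All cytokine libraries were higher, with library C the highest of both groups, and SIRT1 rose 2.24-fold (log2 fold change 1.16, SE 0.24, limma adjusted p = 0.00477). Per length its level went from 13.1 ± 4.39 to 33.0 ± 15.2 TPM, and its share of the summed sirtuin TPM from 8.54% ± 2.49 to 20.4% ± 7.62. The mitochondrial sirtuins SIRT3 (17.6 to 18.7 CPM in control, 11.4 to 14 CPM in cytokine libraries) and SIRT5 (8.91 to 12 and 5.40 to 8.18 CPM) were lower without overlap. Neither was called: SIRT3 had a log2 fold change of -0.46 with a limma adjusted p of 0.0170, under the fold threshold, and SIRT5 -0.46 with 0.0698. SIRT2, the most abundant sirtuin per length at 57.1 ± 5.02 TPM in control, overlapped between groups (log2 fold change -0.32, limma adjusted p = 0.191).

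**Figure D2:**
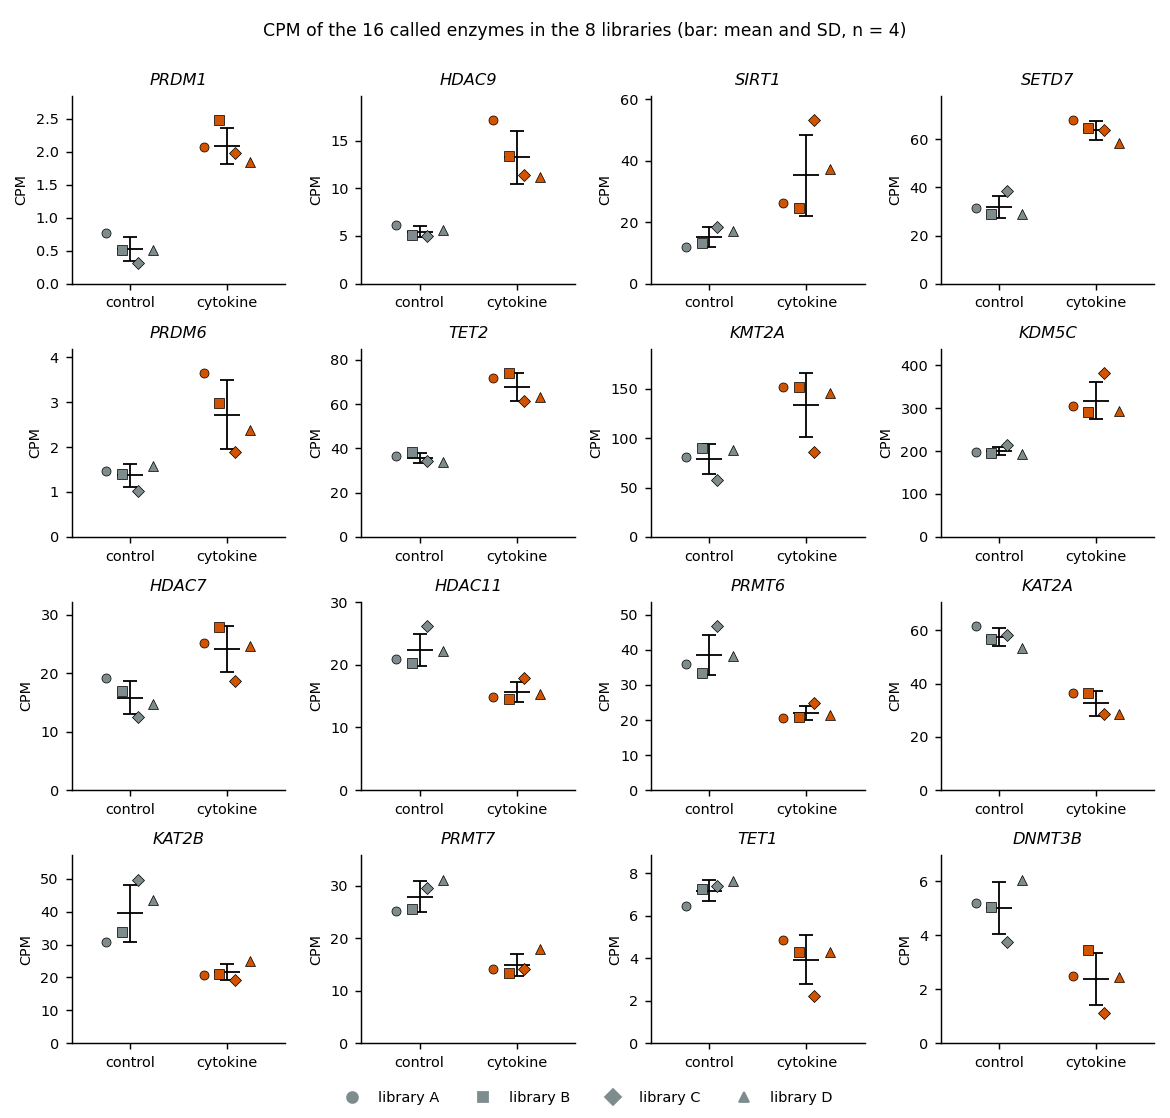
CPM of each called enzyme (1 panel a gene) in control and cytokine libraries, a marker shape for each of the pairs A to D, with the mean and SD (n = 4) as a bar. In 14 of the 16 panels the groups do not overlap, and in the KMT2A and HDAC7 panels cytokine library C falls among or below control values.

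The lysine acetyltransferases KAT2A (GCN5) and KAT2B (PCAF), 2 closely related enzymes that acetylate H3K9 within the SAGA and ATAC complexes, were both lower. KAT2A (ENSG00000108773, chr17:42113108-42121358) had 61.4, 56.7, 58.3 and 53.5 CPM in control and 36.5, 36.6, 28.6 and 28.6 CPM in cytokine libraries. It fell by 0.83 on the log2 scale (SE 0.13, limma adjusted p = 0.000660), and the groups did not come near each other. KAT2B (ENSG00000114166, chr3:20040023-20154404) had 30.8, 33.8, 49.7 and 43.5 CPM in control and 20.7, 21.2, 19.3 and 25.1 CPM in cytokine libraries, a fall by 0.85 (SE 0.17, limma adjusted p = 0.00310). Its control libraries were more spread than its cytokine libraries, with C and D the highest. KAT6A and KAT6B, catalytic subunits of the MOZ and MORF complexes, were higher without overlap (56.6 to 74.0 against 76.8 to 87.6 CPM, and 43.9 to 49.3 against 51.0 to 63.2 CPM). Neither was called on CPM (log2 fold changes 0.37 and 0.30, limma adjusted p = 0.0325 and 0.0741), and KAT6A was with TMM (0.52). KAT14, an ATAC subunit outside the name rule, also fell, from 27.6 ± 3.76 to 15.9 ± 1.08 CPM (log2 fold change -0.78, SE 0.13, limma adjusted p = 0.00138). Within the family, KAT2A went from 28.7% ± 2.23 to 18.5% ± 2.41 of the summed TPM and KAT2B from 13.1% ± 2.3 to 8.22% ± 1.06, while KAT5 (TIP60) went from 27.0% ± 1.80 to 35.7% ± 3.87. KAT5 itself was not called (log2 fold change 0.21, limma adjusted p = 0.234), and 1439 of its 3732 exon bases are shared with a gene on the other strand.

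The arginine methyltransferases had 2 of 7 members called (28.6%, against 27.0% of all genes), both lower. PRMT7 (ENSG00000132600, chr16:68310974-68358563), which monomethylates arginine, had 25.2, 25.7, 29.6 and 31.2 CPM in control and 14.1, 13.4, 14.2 and 18.0 CPM in cytokine libraries. It fell by 0.90 on the log2 scale (SE 0.14, limma adjusted p = 0.000710) without overlap. PRMT6 (ENSG00000198890, chr1:107056679-107067636), which methylates H3R2, had 35.9, 33.5, 46.7 and 38.3 CPM in control and 20.5, 20.9, 24.9 and 21.4 CPM in cytokine libraries. Control values ran from 33.5 CPM upwards and cytokine values stayed below 25 CPM, a fall by 0.81 (SE 0.13, limma adjusted p = 0.00118). PRMT1, the main asymmetric arginine methyltransferase and the most abundant of the class at 82.6 ± 23.3 TPM in control, had 86.3, 93.5, 124 and 104 CPM in control and 93.3, 96.7, 122 and 92.8 CPM in cytokine libraries. Its log2 fold change was -0.00 (SE 0.14, limma adjusted p = 0.986), and 0.15 with TMM. Of the summed TPM of the family, PRMT6 made up 17.0% ± 0.948 in control and 10.3% ± 0.383 in cytokine libraries, and PRMT7 5.66% ± 0.496 and 3.24% ± 0.493.

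**Figure D3:**
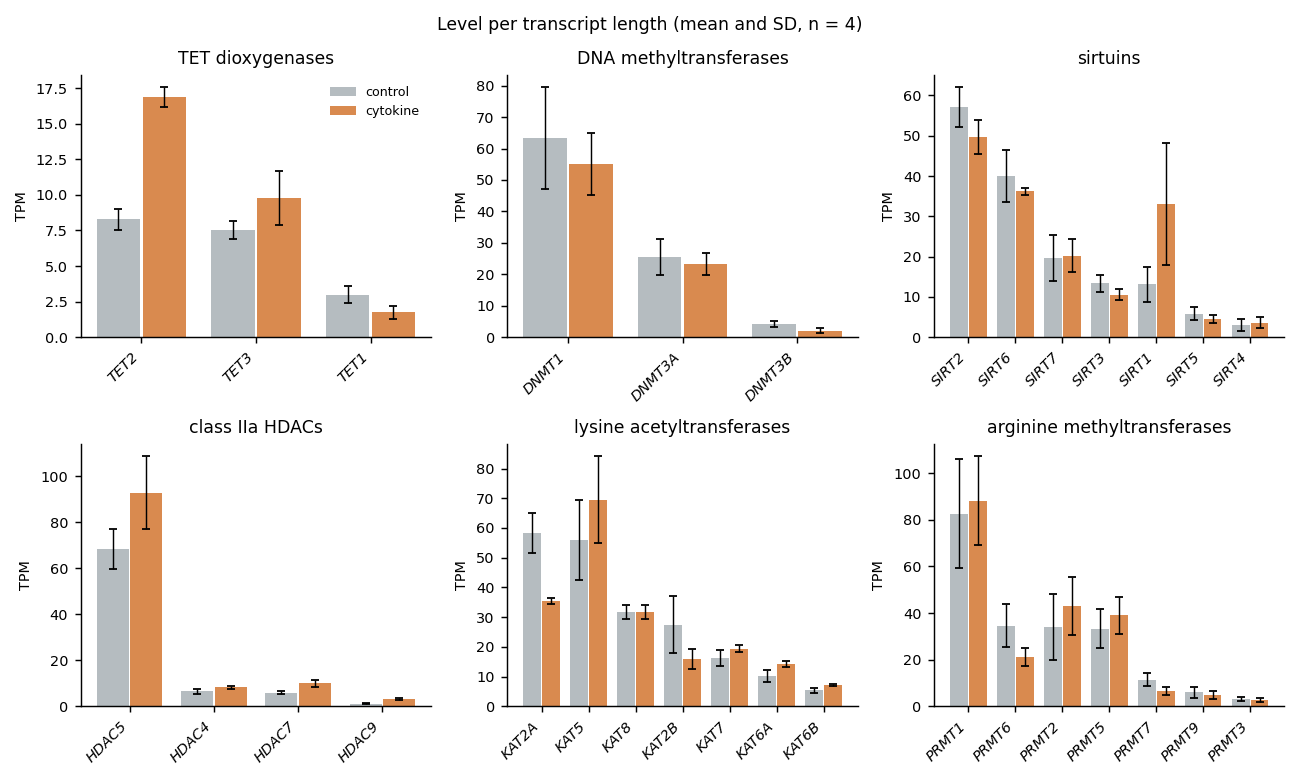
TPM of the members of 6 families in control (grey) and cytokine libraries (orange), as mean bars from 0 with the SD (n = 4) as error bar, ordered by control level. TET2 parts from TET3 only in cytokine libraries (16.9 against 9.78 TPM), SIRT1 rises from 13.1 to 33.0 TPM, and HDAC5 holds most of the class IIa signal in both groups.

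Of the 19 members with KMT2, KMT5, SETD or EZH names, 2 were called (10.5%, against 27.0% of all genes), both higher. SETD7 (ENSG00000145391, chr4:139495941-139606699), which monomethylates H3K4 and several transcription factors, had 31.5, 28.9, 38.4 and 28.9 CPM in control and 68.0, 64.6, 63.7 and 58.5 CPM in cytokine libraries. It rose 2.00-fold (log2 fold change 1.0, SE 0.12, limma adjusted p = 0.000167), with a wide gap between the groups. KMT2A (MLL1; ENSG00000118058, chr11:118436464-118526832), an H3K4 methyltransferase, had 81.4, 90.1, 57.3 and 88.6 CPM in control and 151, 152, 85.8 and 146 CPM in cytokine libraries. Library C was the lowest of its group in both conditions, and its cytokine value lay within the control range. KMT2A rose 1.67-fold (log2 fold change 0.74, SE 0.21, limma adjusted p = 0.0213), and lost the call without any 1 of cytokine A, B and D (log2 fold changes 0.66, 0.66 and 0.68, limma adjusted p = 0.0607, 0.0595 and 0.0570). Of its 31305 exon bases 5599 are shared with a gene on the same strand, to which reads could also belong. KMT2C overlapped between groups (52.8 to 71.6 and 61.7 to 92.3 CPM) and was called with TMM and not on CPM (log2 fold change 0.35 on CPM and 0.51 with TMM, adjusted p = 0.109 and 0.0403). KMT2B, the member of highest CPM in its class (141 ± 42.7 in control), was not called (log2 fold change 0.24, limma adjusted p = 0.494). KMT5C, which trimethylates H4K20, was lower without overlap, at 46.3 to 60.9 CPM in control and 32.7 to 44.1 CPM in cytokine libraries, under the fold threshold (log2 fold change -0.41, limma adjusted p = 0.0411). SETD5 and EZH1, each the highest of its class in CPM, were not called (log2 fold changes 0.21 and -0.36, limma adjusted p = 0.348 and 0.133).

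Of the 17 lysine demethylases KDM5C was called higher and none was called lower (5.88% called, against 27.0% of all genes). KDM5C (ENSG00000126012, chrX:53191321-53225422) removes methyl groups from H3K4. It had 197, 195, 214 and 194 CPM in control and 305, 290.4, 381 and 292 CPM in cytokine libraries, with library C the highest in both groups. The rise was 1.58-fold (log2 fold change 0.66, SE 0.12, limma adjusted p = 0.00246). KDM5C already ranked 2 of the 83 enzymes per length in control libraries (88.0 ± 14.6 TPM) and reached 152 ± 32.2 TPM with cytokines. It made up 80.4% ± 2.32 of the KDM5 TPM in control and 84.8% ± 1.25 in cytokine libraries. KDM5A was called with TMM and not on CPM. It had 18.4, 22, 35.6 and 34.3 CPM in control and 32.5, 29, 46.8 and 41.8 CPM in cytokine libraries, higher in each of the 4 pairs, with C and D above A and B in both groups (log2 fold change 0.47 on CPM and 0.62 with TMM, adjusted p = 0.149 and 0.0351). KDM6B, the H3K27 demethylase known from inflammatory macrophages and picked after its values were seen, had 123, 113, 70.1 and 79.1 CPM in control and 154, 152, 123 and 114 CPM in cytokine libraries. It just missed the call (log2 fold change 0.52, limma adjusted p = 0.0611), and with the pair as a replicate block it was called (0.52, limma adjusted p = 3.53e-05). Its partner KDM6A was at 46.5 to 53.6 CPM in control and 57.9 to 65.3 CPM in cytokine libraries, without overlap (log2 fold change 0.26, limma adjusted p = 0.0859). KDM1A (LSD1) was not called (log2 fold change -0.07 on CPM and 0.09 with TMM), and KDM1B, at 16.6 to 19.2 CPM in control and 13.2 to 14.6 CPM in cytokine libraries, was under the fold threshold (-0.37, limma adjusted p = 0.0331). KDM2B (-0.35) and KDM4B (-0.20) were lower without overlap and without a call (limma adjusted p = 0.0536 and 0.175).

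The PRDM proteins had 2 of 9 members called (22.2%, against 27.0% of all genes), both higher and both at low levels. PRDM1 (BLIMP-1; ENSG00000057657, chr6:106086320-106109939), a repressor best known from plasma cell differentiation, had 0.770, 0.508, 0.319 and 0.508 CPM in control and 2.07, 2.48, 1.97 and 1.85 CPM in cytokine libraries. These are 36, 24, 16 and 26 reads against 97, 116, 98 and 92 reads, without overlap and at a low level. Control library C was below 0.5 CPM, so PRDM1 passed the authors' filter of 4 samples only with cytokine libraries counted. PRDM1 rose 3.60-fold (log2 fold change 1.85, SE 0.27, limma adjusted p = 0.000475). At so low a level the size depends on the pseudocount, and with 1 CPM in place of 0.1 CPM the log2 fold change was 1.02 (limma adjusted p = 0.000211), below those of HDAC9 (1.13) and SIRT1 (1.12). PRDM6 (ENSG00000061455, chr5:123089121-123194266), a repressor studied in smooth muscle, had 1.48, 1.40, 1.02 and 1.58 CPM in control and 3.64, 2.99, 1.89 and 2.37 CPM in cytokine libraries. Its groups did not overlap, and it rose 1.89-fold (log2 fold change 0.92, SE 0.25, limma adjusted p = 0.0174). Without cytokine A the call was lost (log2 fold change 0.77, limma adjusted p = 0.0577). PRDM16, picked after its values were seen, had 1.0, 1.06, 0.856 and 0.899 CPM in control and 0.192, 0.192, 0.745 and 0.924 CPM in cytokine libraries. Its log2 fold change was -1.92 and -1.99 in pairs A and B and -0.18 and 0.04 in C and D, and -1.01 in all (limma adjusted p = 0.0971), with 9 reads in each of the cytokine libraries A and B. With the pair as a replicate block PRDM16 was called on CPM (limma adjusted p = 0.0249) and not with TMM (0.0586). PRDM4, the member of highest CPM in its class, was not called (log2 fold change 0.26, limma adjusted p = 0.255). Of the 83 enzymes 8 had fewer than 100 reads in some library.

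The 4 pairs were then compared one by one. All 16 called enzymes moved the same way in each pair. For the 14 without overlap between groups this holds under any pairing, so only KMT2A and HDAC7 could have differed. The most even were HDAC11 (log2 fold changes of -0.49, -0.48, -0.54 and -0.53 in pairs A to D) and TET2 (0.98, 0.94, 0.83 and 0.90). Pair C gave the largest fall of TET1 (-1.68, against -0.40 in pair A), of KAT2B (-1.36) and of DNMT3B (-1.67), and the largest rise of SIRT1 (1.51) and PRDM1 (2.31). Fold changes were also taken within A and B and within C and D, with the error estimated from all libraries together. Within A and B 15 enzymes were called: KDM5A and PRDM16 were gained, and DNMT3B (-0.78), TET1 (-0.57) and HDAC11 (-0.49) were lost. Within C and D 18 were called: KDM2B, KDM6B, SIRT3 and SIRT5 were gained, and KMT2A (0.65) and PRDM6 (0.70) were lost. With the pair as a replicate block limma called 18 enzymes, with KDM6B and PRDM16 gained and none lost, and 35.4% of all genes (11.6% higher, 23.8% lower). With a term that sets the AB libraries against the CD libraries the number was 18 as well.

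**Figure D4:**
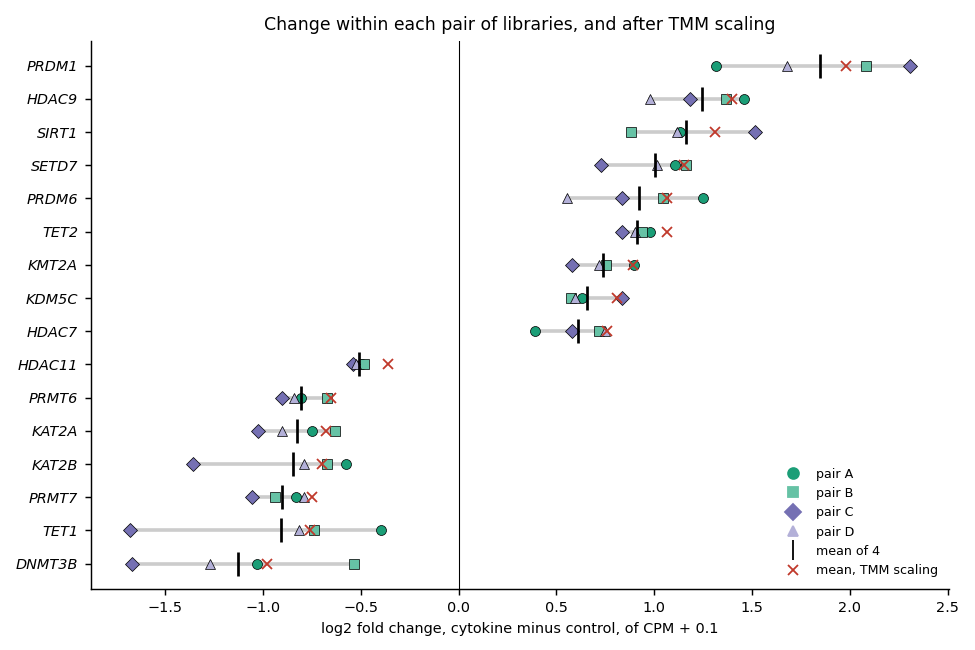
Log2 fold change (cytokine minus control, of CPM + 0.1) of each called enzyme within the pairs A to D, with the mean as a black bar and the mean after TMM scaling as a red cross. Every point of a gene lies on 1 side of 0, which for all but KMT2A and HDAC7 follows from groups that do not overlap. The TMM crosses lie to the right of the bars, with HDAC11 moved from -0.51 to -0.36.

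Genes that work with these enzymes were read in 3 lists from the same fit. Of 36 other writers and erasers measured, 3 rose and 6 fell (4 and 1 with TMM), with a median of -0.04. The share called was 25%, against 27.0% of all genes. NCOA3, a nuclear receptor coactivator, rose from 30.6 ± 1.05 to 68.8 ± 2.96 CPM (log2 fold change 1.17, SE 0.10, limma adjusted p = 1.01e-05). JMJD6, a JmjC hydroxylase, rose from 26.2 ± 2.51 to 48.6 ± 8.41 CPM (0.88), and JMJD1C from 47.4 ± 11.2 to 69.2 ± 9.38 CPM (0.57). EHMT2 (G9a), which dimethylates H3K9, fell from 109.7 ± 16 to 72.2 ± 12.6 CPM (-0.61, limma adjusted p = 0.0129), and with TMM it was not called (-0.46).

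Of 61 partner subunits of writer and eraser complexes, 1 rose and 4 fell (4 and 3 with TMM), with a median of -0.15. The share called was 8.20%, against 27.0% of all genes. The groups did not overlap for 19 of the 61, 3 above and 16 below. Over all genes the share without overlap was 32.8% (10.8% above, 21.9% below). GATAD2B of the NuRD complex rose from 52.2 ± 7.20 to 93.3 ± 16.1 CPM (log2 fold change 0.83, SE 0.15, limma adjusted p = 0.00220). Beside UHRF1, RCOR2, a CoREST scaffold for KDM1A and HDAC1, was called lower. RCOR2 had 32.9, 28.2, 38.5 and 33.9 CPM in control and 14, 12.2, 13.1 and 11 CPM in cytokine libraries. It fell by 1.40 on the log2 scale (SE 0.14, limma adjusted p = 2.94e-05), while KDM1A and HDAC1 were not called. RCOR1 and RCOR3 of the same list were not called either (log2 fold changes -0.31 and -0.14, limma adjusted p = 0.0479 and 0.427). RCOR1 was lower without overlap. PHF19, an accessory subunit of the EZH2 complex, fell from 25.6 ± 4.66 to 14.6 ± 2.56 CPM (-0.81), and MTA3 of NuRD from 50.4 ± 8.26 to 32.7 ± 4.49 CPM (-0.62), which was not called with TMM (-0.47).

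Of 20 genes of cofactor supply, 3 rose and 2 fell (25% called, against 27.0% of all genes). Among them NNMT passed the authors' filter on low CPM with no control library above it, so that its rise is fixed by the filter. NAMPT, the rate-limiting enzyme of NAD salvage, had 17.0, 17.5, 20.5 and 14.4 CPM in control and 100.0, 94.1, 96.3 and 95.2 CPM in cytokine libraries. The rise was 5.57-fold with a narrow spread in both groups (log2 fold change 2.48, SE 0.12, limma adjusted p = 1.38e-07). NNMT, which methylates nicotinamide with S-adenosylmethionine, had 0, 5, 0 and 1 reads in control and 1.51, 1.99, 1.71 and 2.05 CPM in cytokine libraries; no fold is given against so few reads. MAT2B, a regulatory subunit of S-adenosylmethionine synthesis, rose from 12.7 ± 1.49 to 22.4 ± 3.30 CPM (log2 fold change 0.81, SE 0.15, limma adjusted p = 0.00210). AHCY, which clears S-adenosylhomocysteine, the product of methyl transfer, had 146, 161, 219 and 163 CPM in control and 78.6, 79.5, 97.8 and 82.5 CPM in cytokine libraries, and fell by 1.01 (SE 0.14, limma adjusted p = 0.000423). IDH1, which makes 2-oxoglutarate, fell from 57.1 ± 18.0 to 32.1 ± 4.50 CPM (-0.79, SE 0.21, limma adjusted p = 0.0146). All of these lists, like the enzyme families, were read as counts and medians and not tested as sets.

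**Figure D5:**
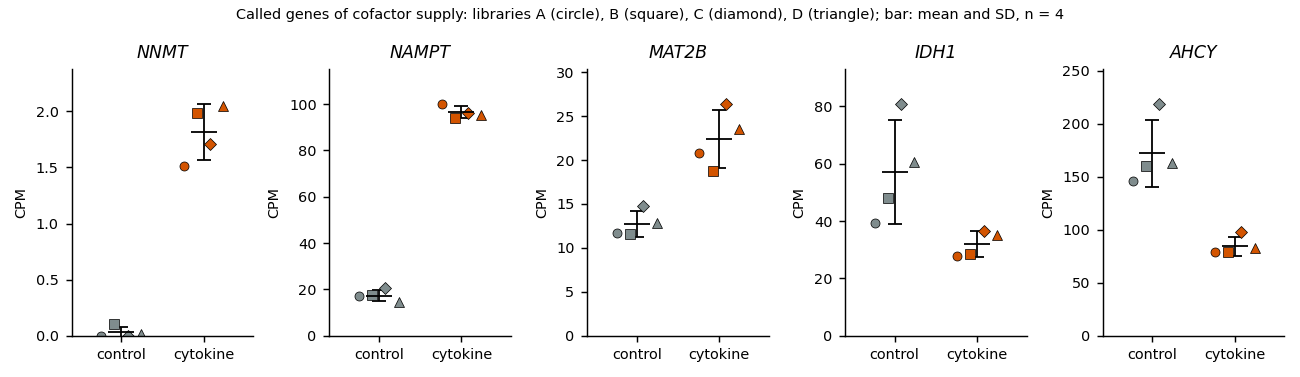
CPM of the called genes of cofactor supply in control and cytokine libraries, a marker shape for each of the pairs A to D, with the mean and SD (n = 4) as a bar. NAMPT parts the groups most clearly (14.4 to 20.5 against 94.1 to 100.0 CPM), and the NNMT control values lie at or near 0.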

How the data were processed

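RNA of 8 EndoC-βH5 libraries, strand-specific per the labels, was analysed as deposited. The authors aligned the reads with TopHat2 2.1.1 to GRCh38, counted them on the genes of Ensembl release 107 with HTSeq 0.9.1, and listed a gene where 4 or more samples exceeded 0.5 CPM. The deposited unit is CPM. Another 4 columns of per-sample values in the table were not used here. In each library 100% of the values were whole reads within 0.01 read, so reads were recovered; a count of 0 allows 3 reads, counting error only.

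Differences were tested over 16525 genes with limma 3.58.1 (R 4.3.3), on log2(CPM + 0.1), by group alone and with the trend option. The paper's test needs counts, so edgeR 4.0.16 and DESeq2 1.42.0 were run on the recovered reads as alternatives. Other alternatives were TMM, median-of-ratios and quantile scaling, pseudocounts of 0.5 and 1 CPM, a filter at a mean of 1 CPM and other thresholds. Also run were the pair as a replicate block, a term for AB against CD, and each library left out. The replicate block with TMM in limma and the E2F and NF-kB patterns were added after seeing the data. The scripts were tested on simulated data.

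Pairs come from the start of the column names. Deviations from the group means correlated by 0.457, 0.504, 0.748 and 0.682 within pairs A to D, so the pairing was kept. Control A with cytokine B gave 0.447 and control B with cytokine A 0.489, which leaves these pairs undistinguished. TPM used the recovered reads and GENCODE 29 exon lengths.

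Named in the text are all called members, members not called whose groups do not overlap, the member of highest CPM in each class, members whose call changes with TMM, and up to 5 called genes of each partner list. KDM6B, PRDM16, EZH2, DNMT3A, TET3 and KAT5 were chosen after their values were seen. The members and lists were chosen with earlier results of these data known. Figures were drawn with matplotlib 3.10.9 in Python 3.11.15, with pandas 2.3.3 and numpy 2.4.6.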

Additional observations from a re-analysis of the deposited data

Results flagged for a closer look

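In each group of 4 libraries the gap of the highest or lowest value to its neighbour was compared with the range of the group, and 7 of the 92 groups of the enzymes named by level or change exceeded Dixon's 95% critical value. Chance gives about 1 in 20. Cytokine library C was involved in 4 of them: KDM5C was high there at 381 CPM, PRMT1 was high at 122.5 CPM, KMT2A was low at 85.8 CPM and SIRT3 was low at 11.4 CPM. Control library C was high for KDM5C, at 214 CPM. KDM1B was high in cytokine library A at 14.6 CPM, and SIRT5 was high in control library D at 12 CPM. Without cytokine library C, the calls of KDM5C and KMT2A were still made.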

How the results depend on the processing

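Of the 83 enzymes 16 were called, and every alternative run except the fold threshold gave 12 to 20. An absolute log2 fold change above 1 left 5, of which 4 were higher and 1 lower, with a call in 5 classes in place of 11, because it admits fewer genes by construction. Leaving out each library in turn gave 12 to 17 calls, lowest without cytokine A, where HDAC7, HDAC11, KMT2A and PRDM6 were lost. The counts were 18 with TMM scaling, 19 with median-of-ratios, 15 with quantile scaling, 17 with edgeR and TMM, 16 with edgeR without TMM, 19 with DESeq2 and 20 with the FDR alone. With the pair as a replicate block, limma called 18 (10 higher, 8 lower), limma with TMM scaling 19 and edgeR with TMM 19, where KDM6B was gained beside the changes that TMM alone made; PRDM16 was gained on CPM alone. DNMT3B lost its call with edgeR and TMM (-0.93, adjusted p = 0.0549). Dropping PRDM genes and the SETD proteins with other substrates left 14.

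Enzymes near 0 changed sign, without a call on either side. KDM1A was at 0.0859 with TMM and with the block and TMM in limma, 0.0857 with the block and TMM in edgeR, 0.0959 with median-of-ratios, 0.0841 with edgeR and TMM, 0.0939 with DESeq2 and 0.0442 within A and B, and from -0.14 to 0.0036 with a library left out. PRMT1 was at 0.15 with TMM, with edgeR and TMM and with the block and TMM, 0.16 with median-of-ratios, 0.17 with DESeq2 and 0.0804 within A and B, and from -0.10 to 0.0933 with a library left out. HDAC1 was at 0.0047 with median-of-ratios and 0.0050 with DESeq2. HDAC6 was at -0.13 within C and D and from -0.0710 to 0.11 with a library left out. The cause was not tested. A pseudocount of 1 CPM moved PRDM1 from 1.85 to 1.02. Depth limits genes of low level: PRDM1 rests on 16 to 36 reads in control libraries.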
